A study of Homo sapiens with 3 samples.

Results

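The 77 protein-coding genes described here encode the nuclear part of the mitochondrial respiratory chain and ATP synthase, as measured in HCT116 cells depleted of UHRF1. They were chosen by symbol alone: probe sets that the platform's annotation pairs with 1 symbol of the form NDUFA, NDUFB, NDUFC, NDUFS or NDUFV and a digit, SDHA to SDHD, UQCR, CYC1, COX4 to COX8 or ATP5, without pseudogenes. The rule found 155 probe sets of 41091 with 1 symbol (54613 on the array), and 151 of these belong to the 77 protein-coding genes, of 19775 genes in all. The other 4 probe sets name 3 non-coding RNAs that share the letters of a subunit symbol and are left out of every count. By symbol, 32 genes belong to complex I, 3 to complex II, 7 to complex III, 17 to complex IV and 18 to complex V.

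HCT116 is a human colorectal carcinoma line. Total RNA came from cells infected with lentivirus for UHRF1 shRNA-2 (hairpin 2, 1 array), UHRF1 shRNA-5 (hairpin 5, 1 array) or a scrambled shRNA as control (1 array), and all cells were kept 6 days under puromycin before harvest. Each Affymetrix array gave a log2 value per probe set, and each gene was read from its probe set with the highest mean. UHRF1, which binds hemimethylated DNA and histone H3 and is needed to keep DNA methylation, read 6.20 with hairpin 2 and 6.67 with hairpin 5, against 8.54 in the control. Of the colorectal epithelial markers 7 of 7 were at the tested level, with values from 6.16 to 12.48, and 0 of 3 leukocyte markers were (2.51 to 2.94). Of 5 fibroblast and endothelial markers 2 were at that level (2.57 to 6.39), and of 3 muscle markers 2 (2.97 to 3.61). Of 2 neuron markers 2 were at that level by their mean over the arrays (single readings of 3.26 to 3.86), with means of 3.32 with hairpin 2 and 3.79 with hairpin 5, against 3.38 in the control. The cells were of the HCT116 line, and why some markers of other cell types read at the tested level was not tested. The array medians were 2.977 with hairpin 2, 3.044 with hairpin 5 and 3.002 in the control.

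The respiratory chain passes electrons from NADH (complex I) and succinate (complex II) through coenzyme Q, complex III and cytochrome c to oxygen at complex IV, and complex V uses the resulting proton gradient to make ATP. Mitochondrial DNA encodes a few core subunits, and all others are nuclear genes that must be made in step with them. In mammals many of these genes carry promoter sites for NRF1, for the ETS factor GABPA and for YY1. The mitochondrially encoded subunits are not analysed here.

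Most respiratory chain genes stood close to the control with either hairpin, and a majority stood slightly below it with both. Of the 72 member genes at the tested level, 40 read below the control with both hairpins, 11 above it with both and 21 on either side. Over all 11865 genes tested, 32.3% were lower with both and 29.0% higher with both, against 55.6% and 15.3% of the members. After cyclic loess, a scaling that evens out differences with brightness, 44.4% of members were lower and 26.4% higher with both, against 32.7% and 30.6% of all genes, so the size of this tilt depended on the scaling. Among brighter genes, above the 60th percentile, 54.3% of 70 members and 34.4% of all 7912 genes were lower with both. In bulk RNA such as this, fewer cells of a type and less RNA per cell cannot be told apart.

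Taken singly, hairpin 2 had 45 of 72 members below the control (46.1% of all genes were) and hairpin 5 had 56 (57.0%). The shift was small. The median difference from the control was −0.07 with hairpin 2 and −0.09 with hairpin 5 over the members, against 0.03 and −0.06 over all genes tested. Above the 60th percentile the medians were −0.07 and −0.09 over the members, against 0.04 and −0.10 over all genes. With hairpin 5 the members were thus about level with genes of that brightness. After cyclic loess the medians were −0.07 and −0.03, against −0.002 and −0.01. The median size of a member's difference, whatever its sign, was 0.14 with hairpin 2 and 0.13 with hairpin 5, against 0.20 and 0.23 over all genes. With hairpin 2, 68 of 72 members lay within 0.5 of the control, and with hairpin 5, 71 did. Reading at least 1.5-fold from the control in 1 direction with both hairpins was seen for 0 members, where 1.59% of all genes were so lower and 0.759% so higher. The members are brighter as a set: 70 of the 72 were above the 60th percentile, against 7912 of the 11865 genes. The part of brightness in the size of the differences was not tested.

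No member passed limma's test of the hairpins against the control (lowest adjusted p = 0.999; 0.0% of all genes passed). At an unadjusted p under 0.05 limma gave 0 of 72 members, and 2.33% of all genes. When the variance prior followed intensity it gave 2, NDUFB1 and ATP5MC2, each with an adjusted p of 0.9995. The share of all genes with an unadjusted p under 0.05 at that setting was not counted, so this count has nothing to be set against. Of all genes tested, 1 passed the adjusted threshold at that setting. The test rests on 2 hairpin arrays and 1 control array, so an exact permutation cannot go below p = 0.333. Nothing in the labels says that the arrays came from separate cultures, and the p-values measure the spread between 2 hairpins.

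**Figure D1:**
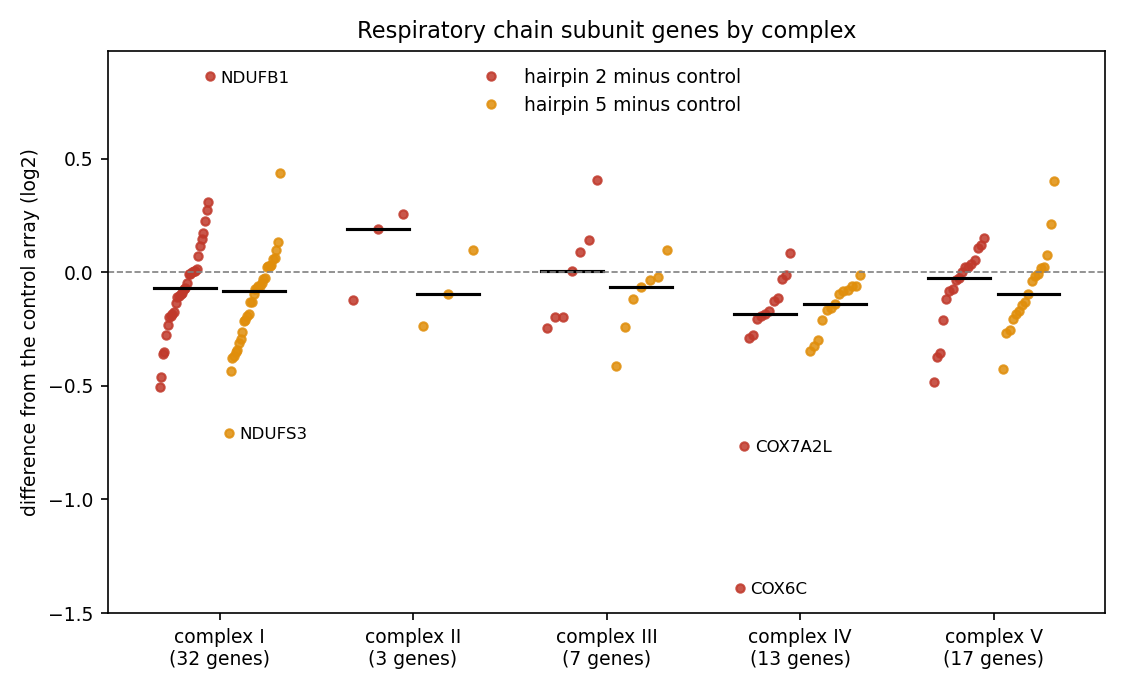
Each point is a tested member gene, placed by its difference from the control array on the log2 scale (vertical axis), for hairpin 2 (red) and hairpin 5 (orange), and black lines are medians. Most points lie within 0.5 of 0, with NDUFB1 above and COX6C, COX7A2L and NDUFS3 below.

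A few members stood apart from this narrow range, and mostly with 1 hairpin. At least 1.5-fold lower with hairpin 2 were 2 members, COX6C and COX7A2L, against 3.14% of all genes, and 1 member, NDUFB1, was as far higher, against 5.93%. With hairpin 5, 1 member was at least 1.5-fold lower, NDUFS3, against 9.79% of all genes, and 0 were higher, against 2.84%. These shares of members are under those of all genes, so the exceptions are of interest for their own values and not as a group.

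The promoter windows below are of 5 members with a window, taken from the genes singled out by their differences. The windows carry, or lack, the letters of the factors known to bind this gene family. They come from RefSeq (GRCh38.p14), run 5′ to 3′ along the gene, and hold 250 bases before and 50 after its start. Capitals mark matches, on either strand, to the letters searched for NRF1 (its palindrome), GABPA and other ETS factors (CCGGAAG), YY1 (GATGGCGG) and NF-Y (CCAAT). NDUFB1 (chr14:92121657-92121956, minus strand) and COX7A2L (chr2:42361168-42361467, minus) hold NF-Y letters, NDUFS3 (chr11:47578824-47579123, plus) a pair of ETS matches, UQCRC1 (chr3:48609597-48609896, minus) NRF1 and YY1 letters, and NDUFS4 (chr5:53560389-53560688, plus) YY1 letters.
NDUFB1: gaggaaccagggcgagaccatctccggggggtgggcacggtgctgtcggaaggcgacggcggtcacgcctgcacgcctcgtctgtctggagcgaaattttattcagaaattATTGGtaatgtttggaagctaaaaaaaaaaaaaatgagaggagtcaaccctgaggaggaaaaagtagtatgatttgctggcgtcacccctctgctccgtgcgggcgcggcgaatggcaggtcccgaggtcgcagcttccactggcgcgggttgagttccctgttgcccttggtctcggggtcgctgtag
NDUFS3: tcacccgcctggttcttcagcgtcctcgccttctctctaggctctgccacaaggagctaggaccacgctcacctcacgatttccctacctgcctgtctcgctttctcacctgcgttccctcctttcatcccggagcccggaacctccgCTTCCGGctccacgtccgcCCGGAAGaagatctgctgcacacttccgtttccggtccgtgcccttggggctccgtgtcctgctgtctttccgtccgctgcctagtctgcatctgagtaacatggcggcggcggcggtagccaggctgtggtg
COX7A2L: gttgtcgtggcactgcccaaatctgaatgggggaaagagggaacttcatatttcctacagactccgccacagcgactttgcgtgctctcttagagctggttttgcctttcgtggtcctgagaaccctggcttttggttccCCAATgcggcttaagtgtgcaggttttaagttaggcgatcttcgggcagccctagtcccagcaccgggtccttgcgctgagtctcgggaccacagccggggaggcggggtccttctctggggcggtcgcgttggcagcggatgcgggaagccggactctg
UQCRC1: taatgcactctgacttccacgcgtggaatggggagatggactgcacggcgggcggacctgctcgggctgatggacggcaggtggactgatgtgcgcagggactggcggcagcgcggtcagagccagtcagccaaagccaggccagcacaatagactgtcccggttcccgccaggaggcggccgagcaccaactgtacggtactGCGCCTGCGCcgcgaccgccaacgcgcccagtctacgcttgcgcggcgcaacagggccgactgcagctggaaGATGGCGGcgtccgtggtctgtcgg
NDUFS4: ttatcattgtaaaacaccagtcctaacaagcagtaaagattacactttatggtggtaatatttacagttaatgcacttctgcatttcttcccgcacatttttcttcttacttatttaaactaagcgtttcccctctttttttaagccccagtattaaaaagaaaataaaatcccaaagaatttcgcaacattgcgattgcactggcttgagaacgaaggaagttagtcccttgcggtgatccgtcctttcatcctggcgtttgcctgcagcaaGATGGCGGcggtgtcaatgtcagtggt

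The NRF1 match of UQCRC1 lies at bases −47 to −38 from the start, and its YY1 match just after the start, at 26 to 33. NDUFS4 has its YY1 match at nearly the same place, 24 to 31, in a window with 40.3% G and C, against 67.3% for UQCRC1. The ETS matches of NDUFS3 lie at −102 to −96 and −83 to −77. No match in a window says only that these letters are not in it.

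Across the family, 65 of the 77 genes matched a window in the table. For each gene 1 window was used, the first listed, also for 9 genes with several, COX7A2L among them. COX6C, CYC1 and ATP5F1B were among the 12 members without a window. NRF1 letters were in 16 of the 65 (24.6%), against 6.28% of all 27305 windows. ETS letters were in 18 (27.7%, against 10.7%), YY1 letters in 8 (12.3%, against 2.44%) and the letters of ESRRA, another regulator of respiratory genes (TCAAGGTCA), in 1 (1.54%, against 0.359%), that of SDHD. At least 1 of NRF1, ETS and YY1 was found in 53.8% of member windows and 17.4% of all windows. Letters of SP factors (GGGCGG) were in 61.5%, against 44.6%, while NF-Y (35.4%, against 35.7%) and TATA box letters (TATAAA; 10.8%, against 12.0%) were about as common as elsewhere. In the member windows 1 ETS match overlapped an SP match, and no other pair overlapped.

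Since UHRF1 acts on CpG methylation, the CpG content of the windows was also counted. Members had a median of 23 CpG per 300 bases, with an observed over expected ratio of 0.85, against 14 and 0.58 over all windows. Their median G and C content was 61%, against 58.3%. The NRF1, ETS, YY1 and SP letters hold a CpG, and the NF-Y and TATA box letters do not. The part of base composition in the shares of windows with a match was not tested. Members with NRF1 letters (15 tested) had median differences from the control of 0.09 with hairpin 2 and −0.02 with hairpin 5, and the 47 tested without them −0.11 and −0.13. For ETS letters the medians were −0.08 and −0.15 with them (18 genes), and −0.08 and −0.07 without (44 genes). These are descriptions of 3 arrays, with no test.

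**Figure D2:**
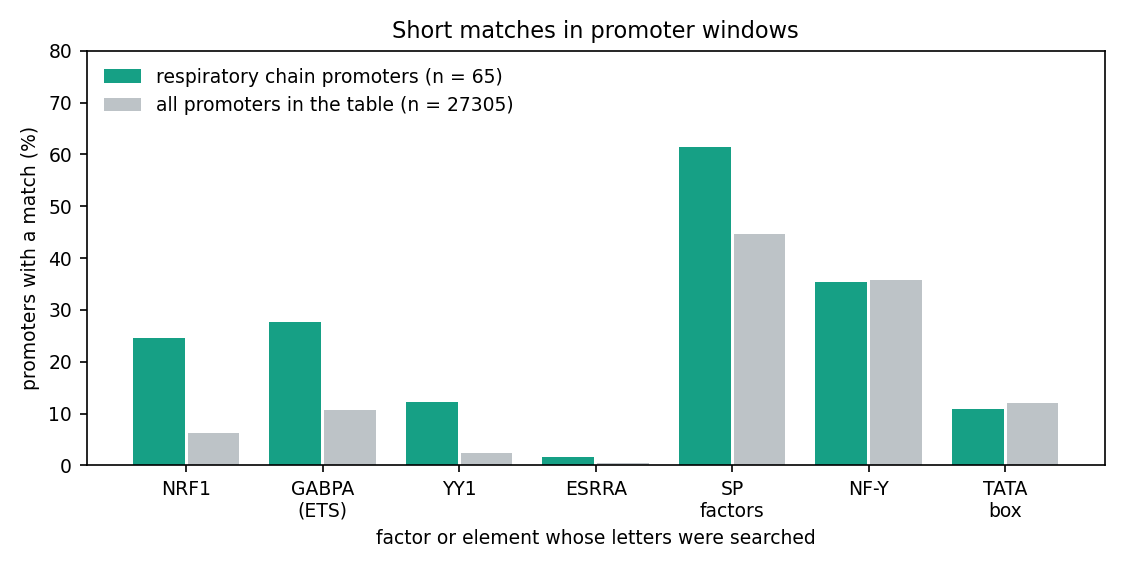
Bars give the percentage of promoter windows with at least 1 match, for 65 respiratory chain genes (green) and all 27305 windows in the table (grey). NRF1, ETS and YY1 letters were more frequent among the members (24.6%, 27.7% and 12.3%), and NF-Y letters were not. The part of base composition in this was not tested.

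Complex I, NADH dehydrogenase, held 17 genes below the control with both hairpins (53.1%, against 32.3% of all genes). It held 6 above the control (18.8%, against 29.0%) and 9 on either side. Its medians were −0.07 with hairpin 2 and −0.08 with hairpin 5. With cyclic loess 13 genes were below and 7 above, where 32.7% and 30.6% of all genes were. The core subunits carry the flavin and iron-sulphur centres, and 3 of the 5 analysed were lower with both hairpins, 1 was higher and 1 was level with hairpin 2 and lower with hairpin 5. NDUFS1, the largest, read 7.67 with hairpin 2 and 7.87 with hairpin 5, against 7.95 in the control. NDUFS7 read 8.59 and 8.42, against 8.68. Both hairpin arrays thus lay below the control for these genes, by 0.07 to 0.27. NDUFV2 was also lower with both (−0.23 and −0.03), whereas NDUFV1, which holds the NADH site, was higher (0.15 and 0.03).

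NDUFS3, a core subunit of the arm that projects into the matrix, was the member furthest below the control with hairpin 5. It read 9.48 with hairpin 2 and 8.76 with hairpin 5, against 9.47 in the control. Hairpin 2 and the control were thus level, and hairpin 5 alone was 1.63-fold lower. The difference was 0.02 with hairpin 2 and −0.71 with hairpin 5, a mean of −0.35 ± 0.51 (SD, n = 2 hairpins). NDUFS3 has 1 probe set, so no second reading bears on it.

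NDUFB1, a small accessory subunit of the membrane arm, was the member furthest above the control with both hairpins. It read 10.53 with hairpin 2 and 10.11 with hairpin 5, against 9.67 in the control. Hairpin 2 stood 1.82-fold and hairpin 5 1.35-fold above the control, a mean difference of 0.65 ± 0.30 (SD, n = 2), with an adjusted p of 0.999 in limma. The gene's other probe set read 2.34 to 2.52 on the 3 arrays, below the tested level, and averaging both gave 0.39.

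The other complex I genes furthest above the control with both hairpins were NDUFB4, of the membrane arm (11.48 and 11.44, against 11.31), and NDUFA10, an accessory subunit (9.48 and 9.30, against 9.20). On the lower side stood NDUFS4, an accessory subunit whose loss causes Leigh syndrome. It read 8.72 with hairpin 2 and 8.83 with hairpin 5, against 9.18 in the control, a mean difference of −0.41 ± 0.08 (SD, n = 2). The hairpins were close to each other here and both below the control. NDUFB5 (9.56 and 9.41, against 9.76) and NDUFB8 (10.32 and 10.48, against 10.67), both of the membrane arm, followed. Of the 11 NDUFB genes, 5 were lower with both hairpins and 3 higher (45.5% and 27.3%, against 32.3% and 29.0% of all genes). Of the 16 other accessory genes, 9 were lower and 2 higher (56.2% and 12.5%). Their differences ran from −0.46 to 0.27 with hairpin 2 and from −0.38 to 0.10 with hairpin 5.

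Complex II, succinate dehydrogenase, has 3 genes here, and each was mixed. SDHA, the flavoprotein, read 8.52 with hairpin 2 and 8.74 with hairpin 5, against 8.64 in the control, and is read by 1 probe set whose name ends in _x_at, a mark of possible cross-hybridisation. The membrane anchors SDHC (8.84 and 8.42, against 8.66) and SDHD (9.18 and 8.83, against 8.93) were above the control with hairpin 2 and below it with hairpin 5. For SDHC, 5 probe sets were at the tested level, and hairpin 5 stood below the control in all 5 (−0.09 to −0.43) and below hairpin 2 in all 5. Against the control with hairpin 2 they ran from −0.06 to 0.60.

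Complex III passes electrons from coenzyme Q to cytochrome c. Both hairpins read below the control for 3 of its 7 genes, above it for 1 and on either side for 3. Over all genes 32.3% were below and 29.0% above. The complex III medians were 0.01 and −0.06. Cyclic loess put 3 of these genes below and 4 above, against 32.7% and 30.6% of all genes. CYC1, which encodes cytochrome c1, read 11.01 with hairpin 2 and 10.84 with hairpin 5, against 11.25 in the control. Its mean difference was −0.33 ± 0.12 (SD, n = 2). UQCRQ, a small subunit (10.25 and 10.20, against 10.44), and UQCRC2, a core protein (9.93 and 10.00, against 10.12), were also lower with both. The other core protein, UQCRC1, was the 1 higher with both, at 10.42 and 10.12, against 10.02. The paired core proteins UQCRC1 and UQCRC2 thus lay on opposite sides of the control with both hairpins. The second UQCRC2 probe set at the tested level was also lower with both (−0.25 and −0.24).

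**Figure D3:**
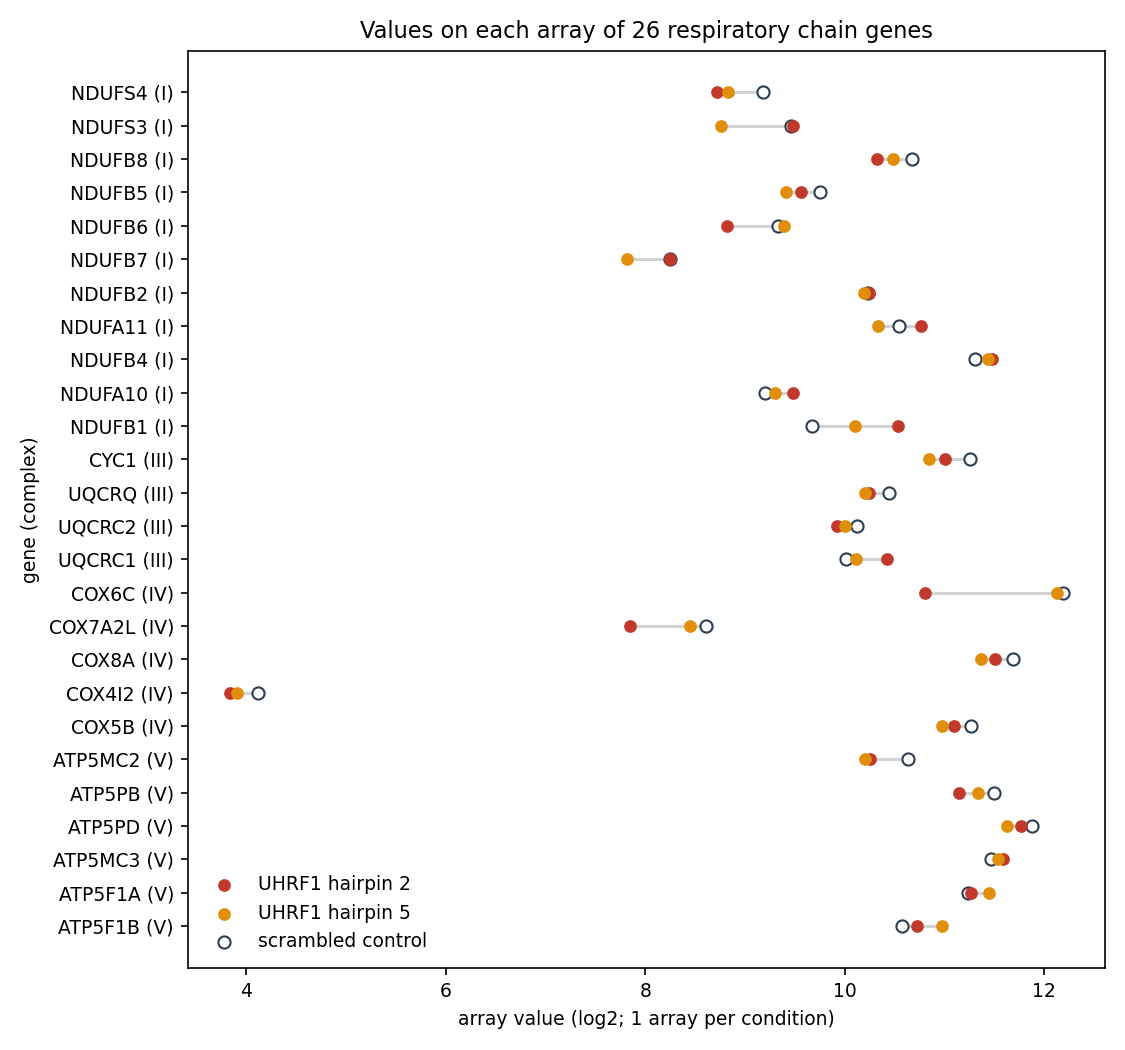
Each row gives the log2 value of a gene on the 3 arrays, for hairpin 2 (red), hairpin 5 (orange) and the scrambled control (open circle), and the 26 genes were taken by a fixed rule of size and direction from complexes I, III, IV and V. COX6C at 10.80 with hairpin 2 lies far left of its other readings (12.13 and 12.19), whereas for most genes the 3 values lie close together.

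Complex IV, cytochrome c oxidase, leaned one way. Of 13 tested genes, 12 were lower with both hairpins (92.3%, against 32.3% of all genes). With cyclic loess 9 were lower and 1 higher, where 32.7% and 30.6% of all genes were. The medians were −0.18 with hairpin 2 and −0.14 with hairpin 5, and −0.15 and −0.06 with cyclic loess. The 1 exception was COX7B (11.36 and 11.27, against 11.28). COX4I2 and COX6B2, among the 12, were dim, at 3.27 to 4.11 on the 3 arrays. Above the 60th percentile 10 of 11 genes were lower with both, against 34.4% of all genes. Beside the exceptional COX6C and COX7A2L, the differences of the lower genes were small: they ran from −0.35 to −0.01 over both hairpins.

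COX6C, a small subunit of the inner membrane that is nuclear-encoded, had the largest difference of any member. It read 10.80 with hairpin 2 and 12.13 with hairpin 5, against 12.19 in the control. Hairpin 5 and the control were nearly level, and hairpin 2 alone stood apart, 2.62-fold below the control. It was the 1 member at least 2-fold below the control with hairpin 2, where 0.573% of all genes were. Directly between the hairpins, with no use of the control, hairpin 2 minus hairpin 5 was −1.33, the 6th lowest of 11865 genes tested. The mean difference from the control was −0.72 ± 0.94 (SD, n = 2), smaller than its spread. COX6C has 1 probe set, and its value with 1 array has no replicate check.

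COX7A2L, a relative of COX7A2 that joins complexes III and IV into supercomplexes, was the other member with a low value for hairpin 2. It read 7.84 with hairpin 2 and 8.45 with hairpin 5, against 8.61 in the control. It was thus 1.70-fold lower with hairpin 2 and 0.16 lower on the log2 scale with hairpin 5, and again has 1 probe set. Ranked from the lowest, its hairpin 2 minus hairpin 5 of −0.61 was 257th among all genes tested. The common isoform COX7A2 was lower by less (11.18 and 11.33, against 11.47).

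Among the other common subunits, COX8A (11.51 and 11.37, against 11.69), COX5A (11.14 and 10.92, against 11.27) and COX5B (11.10 and 10.97, against 11.27) stood below the control with both hairpins. COX5A and COX5B encode a matrix-side pair of subunits. All 4 COX5B probe sets at the tested level were lower with both hairpins, the 3 that do not stand for the gene by 0.06 to 0.09. COX4I1, the largest nuclear-encoded subunit, read 12.27 and 12.20, against 12.30. COX6A1, COX6B1 and COX7C differed from the control by −0.19 to −0.01.

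Paralogs used in other tissues were at low readings. COX4I2, an isoform of lung that responds to hypoxia, read 3.84 and 3.90, against 4.11, and COX6B2, a testis isoform, 3.27 and 3.31, against 3.47. Under the tested level lay the muscle isoforms COX6A2 (2.97 and 3.01, against 3.25) and COX7A1 (2.82 and 3.33, against 2.56), and COX7B2 (2.42 and 2.55, against 2.58) and COX8C (2.38 and 2.40, against 2.42). The tested level was a mean of 3.28 or more over the arrays, and such readings may be background. ATP5MF of complex V, also under it (3.02 and 2.84, against 2.98), was read here from 1 probe set. These 5 genes complete the 77. Over all 77, with no filter, 55.8% were lower with both hairpins, against 31.0% of all genes.

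Complex V, ATP synthase, had 17 tested genes. Of these, 8 read below the control with both hairpins (47.1%, against 32.3% of all genes), 4 above it (23.5%, against 29.0%) and 5 on either side. The medians were −0.03 and −0.10. With cyclic loess the counts were 7 lower and 6 higher, where 32.7% and 30.6% of all genes were. The head of the enzyme held 2 of the 4 higher ones. ATP5F1B, the catalytic beta subunit, read 10.73 with hairpin 2 and 10.98 with hairpin 5, against 10.58 in the control, a mean difference of 0.28 ± 0.18 (SD, n = 2). ATP5F1A, the alpha subunit, read 11.27 and 11.44, against 11.23. Both hairpin arrays were above the control for these partners of the catalytic ring.

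ATP5F1C, the gamma subunit that turns inside that ring, was lower with hairpin 2. Its 3 probe sets at the tested level, which share the _x_at ending, gave −0.42, −0.46 and −0.48 with hairpin 2, and 0.06, 0.07 and −0.02 with hairpin 5. All 3 were thus lower with hairpin 2 and within 0.07 of the control with hairpin 5, although such probe sets may share probes.

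The c ring, which rotates in the membrane, is encoded by 3 genes whose mature protein is the same. ATP5MC2 read 10.26 with hairpin 2 and 10.20 with hairpin 5, against 10.63 in the control, and its mean difference of −0.40 ± 0.04 (SD, n = 2) was the lowest of complex V. ATP5MC1 was lower by less (9.57 and 9.46, against 9.60), and ATP5MC3 was higher with both (11.58 and 11.54, against 11.46). The 3 genes for this 1 protein thus did not lean the same way. The stalk subunits ATP5PB (11.15 and 11.33, against 11.50) and ATP5PD (11.76 and 11.63, against 11.88) were lower with both. ATP5IF1, which inhibits the enzyme when it runs backwards, lay on either side of the control (0.06 and −0.13).

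Between the hairpins, 27 of the 72 members read lower with hairpin 2 than with hairpin 5 (38.8% of all genes did). The median of hairpin 2 minus hairpin 5 was 0.06 over the members and 0.10 over all genes, and its median size was 0.15 and 0.25. At least 1.5-fold lower with hairpin 2 than with hairpin 5 were 2 members, COX6C and COX7A2L, against 2.65% of all genes, and 1 was as far higher, NDUFS3 (0.72), against 12.1%. Next in order came NDUFB6, an NDUFB subunit, at −0.57 (8.82 with hairpin 2 and 9.40 with hairpin 5, against 9.33 in the control). At the other end were NDUFA11, an accessory subunit of the membrane arm (10.77 and 10.33, against 10.54), and NDUFB7 (8.25 and 7.81, against 8.25).

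**Figure D4:**
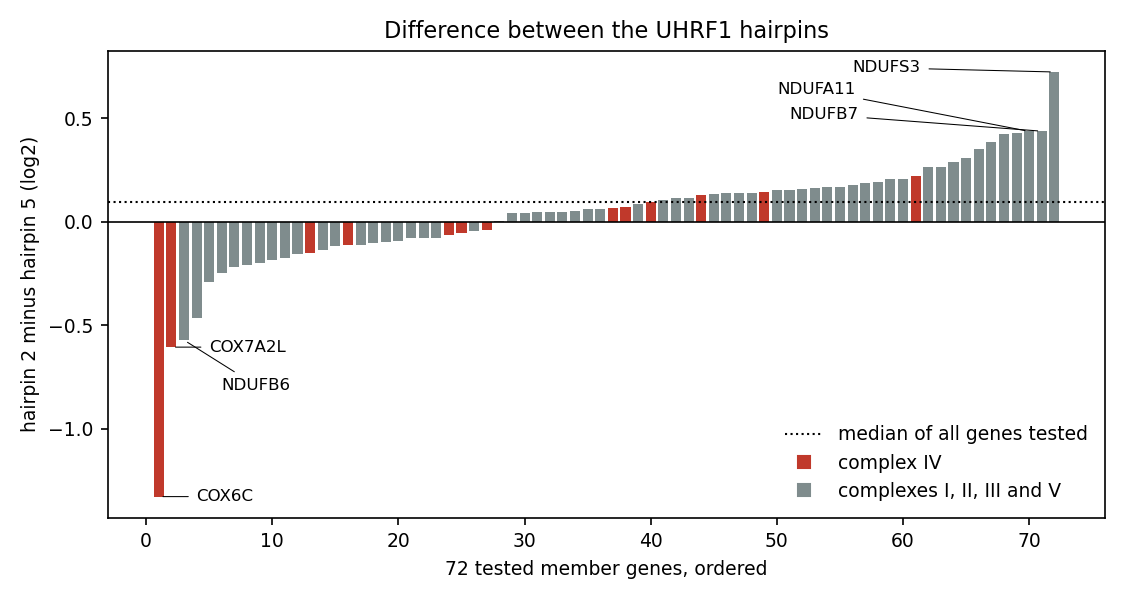
Bars give hairpin 2 minus hairpin 5 on the log2 scale for the 72 tested members in rising order, with complex IV in red, and the dotted line is the median of all genes tested (0.10). COX6C at −1.33 and NDUFS3 at 0.72 are the ends of the order.

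Several genes could be read more than once. Of 44 members with several probe sets, 30 had more than 1 at the tested level, and in 19 of these the mean differences had 1 sign. NDUFB2, a membrane arm subunit, was the 1 gene whose probe sets lay at least 0.3 from the control on both sides of it. Its brightest probe set read 10.24 with hairpin 2 and 10.19 with hairpin 5, against 10.24 in the control, and the next 8.65 and 8.57, against 9.07. The probe set on the higher side (3.33 and 2.75, against 2.71) lay below the tested level. For NDUFV3, an accessory subunit with a long and a short form, the brighter probe set was level with the control (−0.07 and 0.03), and the dimmer was higher with both hairpins (6.30 and 5.84, against 5.53). NDUFA6 had −0.11 and −0.37 by its brighter probe set and 0.57 and 0.21 by its dimmer one. For NDUFV3 and NDUFA6 the mean over hairpins therefore differed in sign between probe sets. These 2 genes were named after their values were seen.

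**Figure D5:**
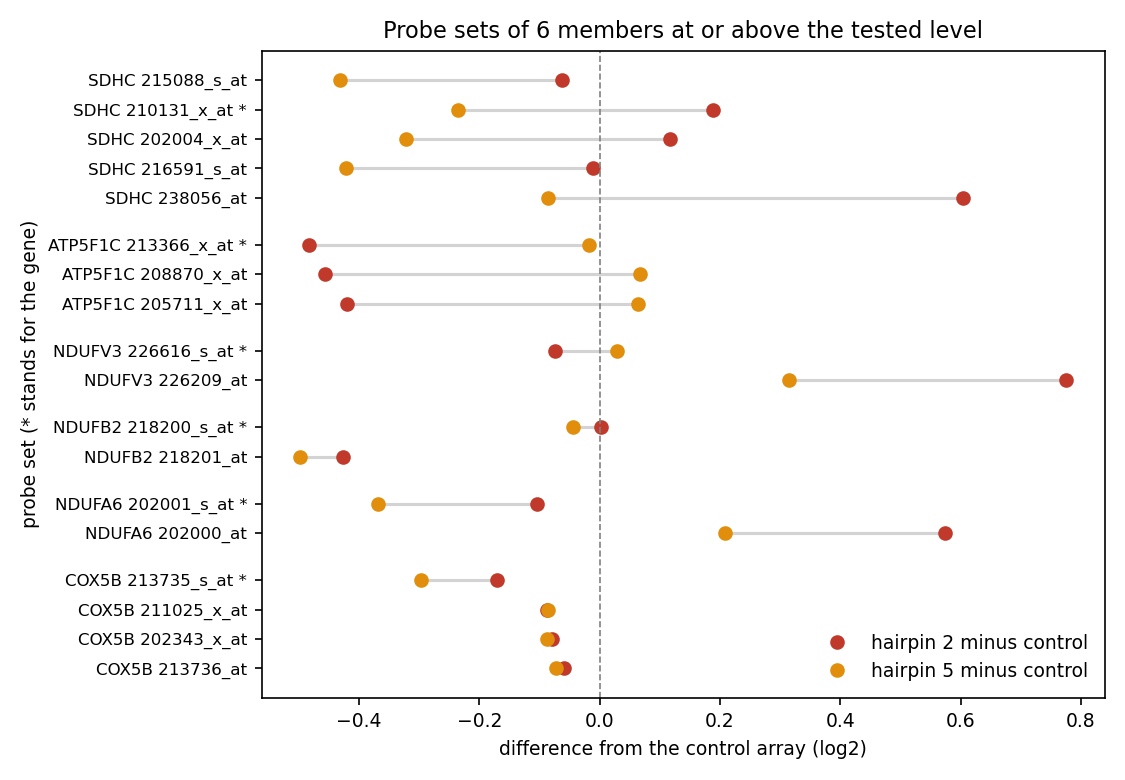
Rows are the probe sets at or above the tested level of 6 members, and points give the difference from the control array (log2) with hairpin 2 (red) and hairpin 5 (orange). Hairpin 5 lies left of hairpin 2 in all 5 SDHC rows and right of it in all 3 ATP5F1C rows, whereas the 2 rows of NDUFA6 lie on opposite sides of 0, and NDUFV3 has 1 row near 0 and 1 to its right.

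Genes that build or serve the chain were read from lists of assembly factors, carriers, regulators and citric acid cycle enzymes. Their counts are to be read against the 32.3% of all genes that were lower and the 29.0% that were higher with both hairpins, and their medians against 0.03 with hairpin 2 and −0.06 with hairpin 5. Complex I assembly factors gave 7 lower and 2 higher with both hairpins of 14 tested (medians 0.00 and −0.14), led by NDUFAF2 (−0.44 and −0.45). Complex II and III factors gave 5 lower and 2 higher of 9 (−0.02 and −0.25), complex IV factors 7 lower and 4 higher of 21 (0.04 and −0.10), and the 3 complex V factors 1 each way. The share of complex IV factors lower with both, 33.3%, was close to that of all genes. UQCC3, needed for assembly of complex III, read 6.58 with hairpin 2 and 7.31 with hairpin 5, against 7.56 in the control. COX18, which inserts a mitochondrially encoded subunit of complex IV into the membrane, read 5.98 and 5.79, against 6.59. None of these list genes passed limma over all genes.

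Of 17 tested electron carriers and coenzyme Q genes, 11 were lower with both hairpins and 2 higher, with medians of −0.05 and −0.26, against 32.3% and 29.0% of all genes. The 2 higher genes were COQ10A, a coenzyme Q binding protein, and COQ8B. COQ10A read 6.35 with hairpin 2 and 5.72 with hairpin 5, against 4.81 in the control, a mean difference of 1.22 ± 0.45 (SD, n = 2; limma adjusted p = 0.999). It has 1 probe set, and with each hairpin it lay further from the control than any of the 77 subunit genes did. COQ2, which attaches the tail of coenzyme Q, was lower (6.97 and 6.92, against 7.49).

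The citric acid cycle list gave 7 lower and 2 higher with both of 15 tested (medians −0.04 and −0.33), against 32.3% and 29.0% of all genes. SUCLG2, a subunit of succinyl-CoA ligase, read 7.13 with hairpin 2 and 7.05 with hairpin 5, against 7.85 in the control, and all 3 of its probe sets at the tested level were lower with both hairpins. Its partner SUCLG1 read 8.69 and 8.60, against 9.09.

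Regulators of mitochondrial biogenesis gave 7 lower and 5 higher with both of 17 tested (41.2% and 29.4%, against 32.3% and 29.0% of all genes), and the medians were 0.04 and −0.18, against 0.03 and −0.06 over all genes. NRF1, whose letters stood in 24.6% of member promoters, read 4.50 with hairpin 2 and 4.50 with hairpin 5, against 5.03 in the control, a mean difference of −0.53 ± 0.01 (SD, n = 2; limma unadjusted p = 0.0976, adjusted p = 0.999). The next 2 NRF1 probe sets by level were also lower with both (−0.45 and −0.38, and −0.30 and −0.37), and another, at 2.98 to 3.46, was higher with both. TFAM, which packages and transcribes mitochondrial DNA, was 0.48 and 0.13 higher by 1 probe set, 0.20 and 0.39 higher by another, and −0.15 and −0.54 by a further one. The direction of TFAM therefore cannot be given from these arrays.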

How the data were processed

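The 3 arrays were 2 of UHRF1 hairpins and 1 of the scrambled control. Per the submitters' processing notes, the authors used RMA and Affymetrix Expression Console to make the deposited log2 values. Versions, settings and centring are not given in the sources used here. The range of the values gave the log base. Probe sets were named through the platform's annotation, with 1 gene for 41091, several for 1801 and none for 11721. RefSeq identifiers (GRCh38.p14) matched 41037 and changed 0 symbols. The 11865 genes tested had a mean of 3.28 or more, the 40th percentile. limma 3.58.1 in R 4.3.3 fitted hairpins minus control, two-sided, with Benjamini-Hochberg adjustment, and 1 residual degree of freedom per gene (5.77 moderated). It was tested on simulated data. The lone control is assumed to vary like the hairpins. Without detection calls, dim readings may be background, and processed pseudogenes may add signal. The number of arrays limits precision.

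The members and lists were chosen with earlier results of these data known. Genes singled out were, per complex, up to 3 lower and 3 higher with both hairpins by the smaller difference, 3 at each end of hairpin 2 minus hairpin 5, paralogs, genes whose probe sets disagree, and up to 2 per direction of each list. NDUFV1, NDUFV2, NDUFS1, NDUFS7, COX5A, COX7C, ATP5F1C, ATP5IF1 and the SDH genes were added as members by role. Promoter letters were searched on both strands. Alternatives were other filters, other choices of probe set, median centring, cyclic loess, other variance priors, other thresholds and leaving out each hairpin.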

Additional observations from a re-analysis of the deposited data

How the results depend on the processing

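Of the 40 genes lower with both hairpins, 29 were so too after cyclic loess. It gave 32 lower and 19 rather than 11 higher (44.4% and 26.4%, against 32.7% and 30.6% of all genes). As single probe sets, 65 were lower and 25 higher of 128 (50.8% and 19.5%, against 30.7% and 31.1% of all 24658). The median difference of −0.1125 was −0.0885 with probe sets averaged per gene, −0.0878 with every probe set and −0.0723 with cyclic loess. With 1 hairpin left out it was −0.0945 to −0.073, and from 45 to 56 genes were lower and from 16 to 26 higher than the control. Over all genes 46.1% to 57.0% were then lower and 42.7% to 53.6% higher. These values have no test. At 1.2-fold, 3 of 72 members passed with both hairpins rather than 0. The share of all genes at 1.2-fold was not counted, so this count has nothing to be set against. limma called 0 members under each filter, scaling, choice of probe sets and variance prior and at an adjusted p of 0.1, with a lowest unadjusted p of 0.0147 to 0.0978. Signs near 0 turned: COX6A1 (0.0098) and COX7B (−0.005) with probe sets averaged, NDUFA11 (−0.0005) with median centring, and COX6B1 (0.0002) and NDUFB2 (0.0211) with cyclic loess. With 1 hairpin left out, COX7B ran from −0.01 to 0.086, NDUFA11 from −0.21 to 0.226, NDUFB2 from −0.045 to 0.003, NDUFB6 from −0.507 to 0.065, NDUFB7 from −0.433 to 0.004 and NDUFS3 from −0.708 to 0.015. The cause was not tested. Of the 38 genes singled out, these 8 turned sign in at least 1 alternative. No paired analysis was possible because there is only 1 control array, so the groups cannot share 2 replicate numbers.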

Other observations

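The 3 non-coding RNAs that share the letters of a subunit symbol read near the tested level or under it. NDUFB2-AS1, annotated as antisense to NDUFB2, read 3.34 with hairpin 2 and 3.34 with hairpin 5, against 3.46 in the control. NDUFV1-DT read 3.10 and 3.40, against 3.43, and NDUFV2-AS1 2.84 and 2.94, against 2.90.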
